A study of Mus musculus with 6 samples.

Results

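The SLC25 family of mitochondrial carriers was followed in haematopoietic stem cells (HSCs) of mouse fetal liver, in 3 knockout (KO) and 3 wild type (WT) libraries. KO cells are labelled knockout for RISP, the Rieske subunit of complex III of the respiratory chain, which Uqcrfs1 encodes, and WT cells are wild type for it. Both groups are C57BL/6. The sources used here give neither the embryonic age nor the driver of the deletion, and do not say whether each library came from its own embryo. The p-values therefore cover the spread among the libraries alone, part of which may be technical. The members are all genes of the deposited count table whose symbol begins with Slc25a and a number, except Slc25a37, which gives 46 of 23951 genes.

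Carriers of this family fold into the inner mitochondrial membrane and move metabolites between cytosol and matrix, most of them as exchangers of one substrate for another. They supply the matrix with ADP and phosphate for ATP synthesis, bring in the substrates and cofactors of matrix enzymes, and carry aspartate, citrate and ATP out. In blood cells the family is best known through the carriers that feed iron and glycine into haem synthesis. A few members sit elsewhere, in peroxisomes or in the outer mitochondrial membrane.

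Uqcrfs1 had 60, 51 and 39 counts in KO, against 771, 1320 and 791 counts in WT , and its level fits the label of each of the 6 libraries. Total counts per library were 12020128 to 14590844 in KO and 10191354 to 13189329 in WT. All 10 stem cell marker genes had counts, and 4 of them were lower in KO. Summed markers of other cells were lower in every KO library than in any WT library, except for hepatoblast genes, where the groups overlapped. The summed level of 13 erythroid genes was 57.6 to 86.0 CPM (counts scaled to library size) in KO and 280 to 556 CPM in WT. Of the 556 CPM in WT replicate 1, Slc4a1 alone gave 280. Hba-a1 and Hbb-b1 were at 0 counts in every library. The deposited RPKM table lists Hbb-b1 at 48.5, 0.000942 and 234 RPKM in KO and at 373, 20.2 and 0.00120 RPKM in WT, so its 0 counts do not show that it was absent. For 10 macrophage genes the sum was 23.5 to 62.7 CPM in KO and 63.0 to 917 CPM in WT, with the highest value in WT replicate 3. The sum of 8 endothelial genes was 145 to 194 CPM in KO and 223 to 1072 CPM in WT, also highest in WT replicate 3. For 6 granulocyte genes it was 200 to 244 CPM in KO and 377 to 450 CPM in WT. For 9 hepatoblast genes it was 9.30 to 50.2 CPM in KO and 26.7 to 98.8 CPM in WT. No gene of these last 4 lists was at 0 in all libraries. Called lower in KO (edgeR, adjusted p below 0.05) were 5 of 11 tested erythroid genes, 0 of 9 macrophage and 1 of 8 endothelial genes. The same held for 1 of 6 granulocyte and 1 of 8 hepatoblast genes, and for 4.99% of all genes. None of these markers was called higher. Epor, Emcn and Fgb had positive log2 fold changes, of 0.67, 0.25 and 0.11. The part of these other cells in the carrier levels was not tested.

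No carrier of the family passed the threshold in either direction in the KO. Of 46 members, 38 had enough counts to be tested, of which edgeR's quasi-likelihood test called 0 higher and 0 lower (adjusted p below 0.05, Benjamini-Hochberg over 12204 genes). Over all genes tested the same rule called 11.4%, with 6.41% higher and 4.99% lower. At an unadjusted p under 0.05 there were 5 members, Slc25a3, Slc25a5, Slc25a13, Slc25a22 and Slc25a28, or 13.2% of those tested, against 25% of all genes. DESeq2 and limma-voom each called 0 members, as did every one of the 16 other settings tried, the 6 that left out 1 library included. Of all genes, 13.2% were called by DESeq2, 11.4% by limma-voom, 11.3% with RLE size factors, 11.5% with no filter and 11.6% with a minimum of 1 CPM in 3 libraries. The share was 11% with a replicate block and 11.7% with offsets for length and GC content. It was 4.04%, 3.95% and 1.02% in fits of limma on log2 RPKM (pseudocount 1, 0.1, and 1 with no filter). Leaving out KO replicates 1 to 3 in turn gave 9.18%, 5.67% and 6.62%, and leaving out WT replicates 1 to 3 gave 7.77%, 10% and 9.49%. The smallest adjusted p that any member reached under any of these settings was 0.0660, for Slc25a3. A p that misses the threshold does not show that a level was the same, so the intervals of the differences are given below. In bulk libraries a lower level can mean fewer cells of a type or less RNA per cell, which cannot be told apart.

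The spread of the carriers around no difference was narrow for the abundant genes. The median log2 fold change, KO over WT, was -0.00 over the 38 members and -0.02 over all genes tested. The median of its size was 0.29 over the members and 0.35 over all genes. In 19 of the 38 the whole 95% interval lay within -1 and 1, that is, within a 2-fold difference either way. All 9 members with a mean level of at least 50 CPM were among them, and the widest of their intervals reached 0.46 to each side. The 12 tested members under 10 CPM were not among them, and their intervals reached past a 2-fold difference on at least 1 side. In 5 members every KO library lay above every WT library (13.2%, against 15.7% of all genes), and in 4 every KO library lay below (10.5%, against 14.5%).

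**Figure D1:**
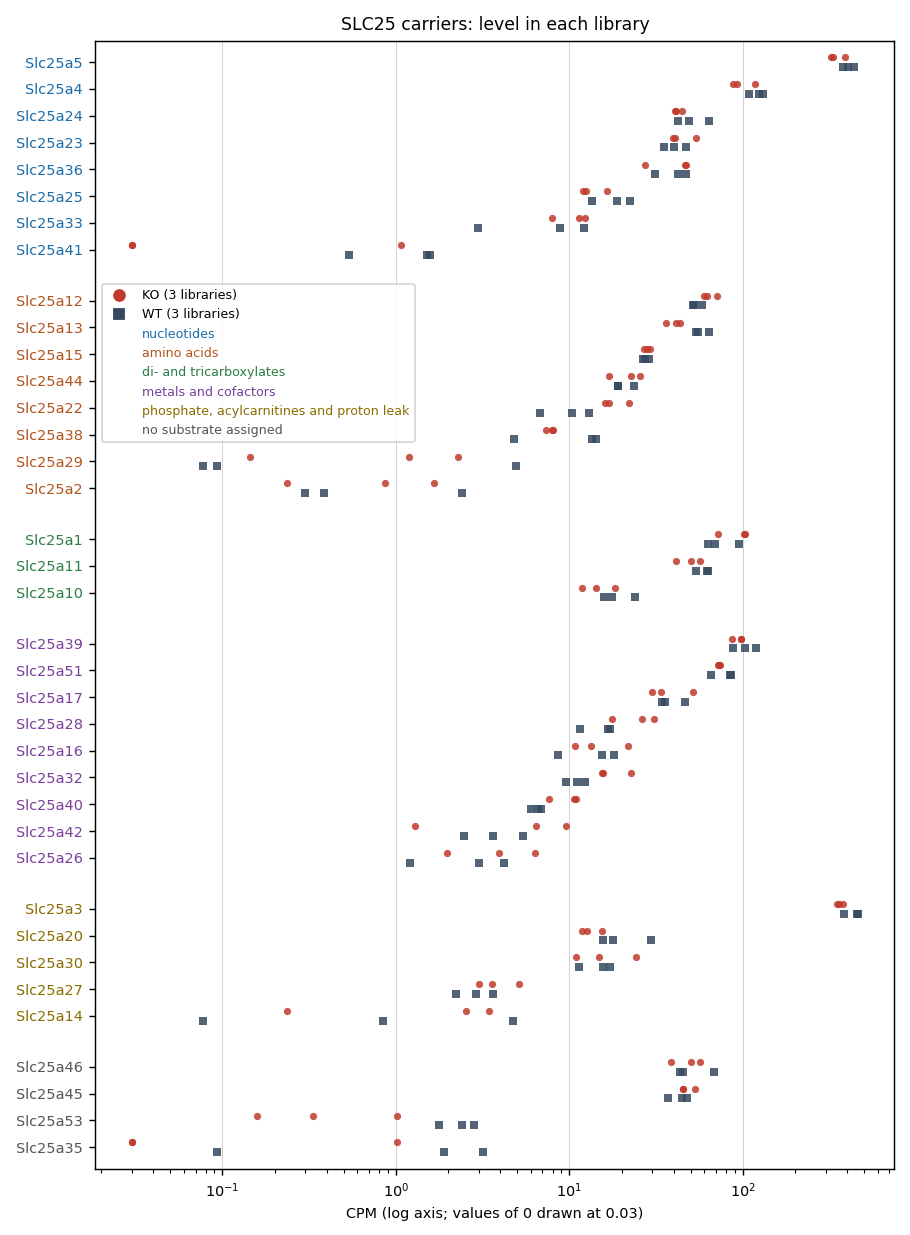
Level of the tested SLC25 carriers in every library (1 of the 38 is not shown), in CPM scaled by TMM on a log axis. Red circles are the 3 KO libraries and dark squares the 3 WT libraries, 1 row per gene, with genes coloured by substrate group. Values of 0 are drawn at the left end of the axis. Most rows show overlapping groups, and Slc25a3 and Slc25a5 stand above the others in every library.

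Per length, the family was dominated by the carriers that serve ATP synthesis. On the scale of the deposited RPKM (reads scaled to gene length and library size), the phosphate carrier Slc25a3 stood at 346 ± 16.1 in KO and 420 ± 47.8 in WT (SD, n = 3 each). The adenine nucleotide translocase Slc25a5 followed at 325 ± 20.3 RPKM in KO and 386 ± 48.8 RPKM in WT, and its paralogue Slc25a4 at 88.1 ± 10.5 RPKM in KO and 105 ± 10.5 RPKM in WT. The ranges of Slc25a3 and Slc25a5 overlapped in KO and in WT, while Slc25a4 was below both in every library. These 3 genes held 65.9%, 63.5% and 62.6% of the family's summed RPKM in KO replicates 1 to 3, against 65.9%, 69.6% and 67.9% in WT replicates 1 to 3. Next came the citrate carrier Slc25a1 (54.6 ± 10.4 RPKM in KO and 46.1 ± 11.5 in WT) and the glutathione carrier Slc25a39 (46.1 ± 3.09 RPKM in KO and 55.9 ± 8.53 in WT), which changed places between the groups within their spread. Summed over all 46 members, the family stood at 1213, 1159 and 1190 RPKM in KO and at 1234, 1463 and 1327 RPKM in WT, with every KO library below every WT library. Most of this sum is Slc25a3, Slc25a4 and Slc25a5, and without them the summed RPKM of the groups overlapped. The sum is therefore no measure of the family as a whole, as 19 of the 38 tested members had a positive and 19 a negative fold change.

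The abundant nucleotide and phosphate carriers sat slightly lower in KO without passing the threshold. Slc25a3, which imports the phosphate used by ATP synthase, had 361, 378 and 349 CPM in KO, against 383, 462 and 455 CPM in WT. The groups did not overlap, WT replicate 1 being closest to the KO libraries, and the log2 fold change was -0.26 with a 95% interval of -0.48 to -0.04 (edgeR, adjusted p = 0.126). Slc25a5, the translocase that exchanges matrix ATP for cytosolic ADP in dividing cells, had 387, 321 and 332 CPM in KO, against 377, 440 and 403 CPM in WT. Here KO replicate 1 lay above WT replicate 1, and the log2 fold change was -0.23 (SE 0.11, edgeR, adjusted p = 0.192). Slc25a4, the isoform best known from heart and muscle, had 118, 92.3 and 88.3 CPM in KO and 123, 131 and 109 CPM in WT, with a log2 fold change of -0.28 (95% interval -0.60 to 0.03). Counts of Slc25a4 as a ratio to those of Slc25a5 were 0.306, 0.287 and 0.266 in KO and 0.327, 0.299 and 0.271 in WT, so the balance of the isoforms overlapped between groups. The ADP/ATP carrier of the germ line, Slc25a31, had 1 count in all libraries together. Reads of Slc25a4 and Slc25a5 may be split with near-identical copies in the genome, and the sources used here do not say how such reads were counted.

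The other nucleotide carriers also overlapped between groups. The ATP-Mg/phosphate carriers adjust the adenine nucleotide pool of the matrix, several of them in response to calcium. Among them Slc25a24 stood at 42.1 ± 2.18 CPM in KO and 51.9 ± 11.05 CPM in WT, Slc25a23 at 44.6 ± 7.84 CPM in KO and 40.7 ± 6.20 CPM in WT, and Slc25a25 at 13.7 ± 2.41 CPM in KO and 18.2 ± 4.41 CPM in WT (SD, n = 3 each). Their log2 fold changes were -0.30, 0.13 and -0.41. Slc25a41 was near the limit of detection, with 0, 16 and 0 counts in KO and 15, 17 and 7 counts in WT. For the pyrimidine nucleotide carriers, Slc25a36 was at 40.4 ± 11.2 CPM in KO and 40.2 ± 8.30 CPM in WT. Slc25a33 had 7.93, 12.2 and 11.4 CPM in KO, against 12.2, 2.98 and 8.87 CPM in WT, where replicate 2 was low. Of the 8 tested nucleotide carriers, 3 had a positive and 5 a negative fold change, with a median of -0.26 on the log2 scale.

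**Figure D2:**
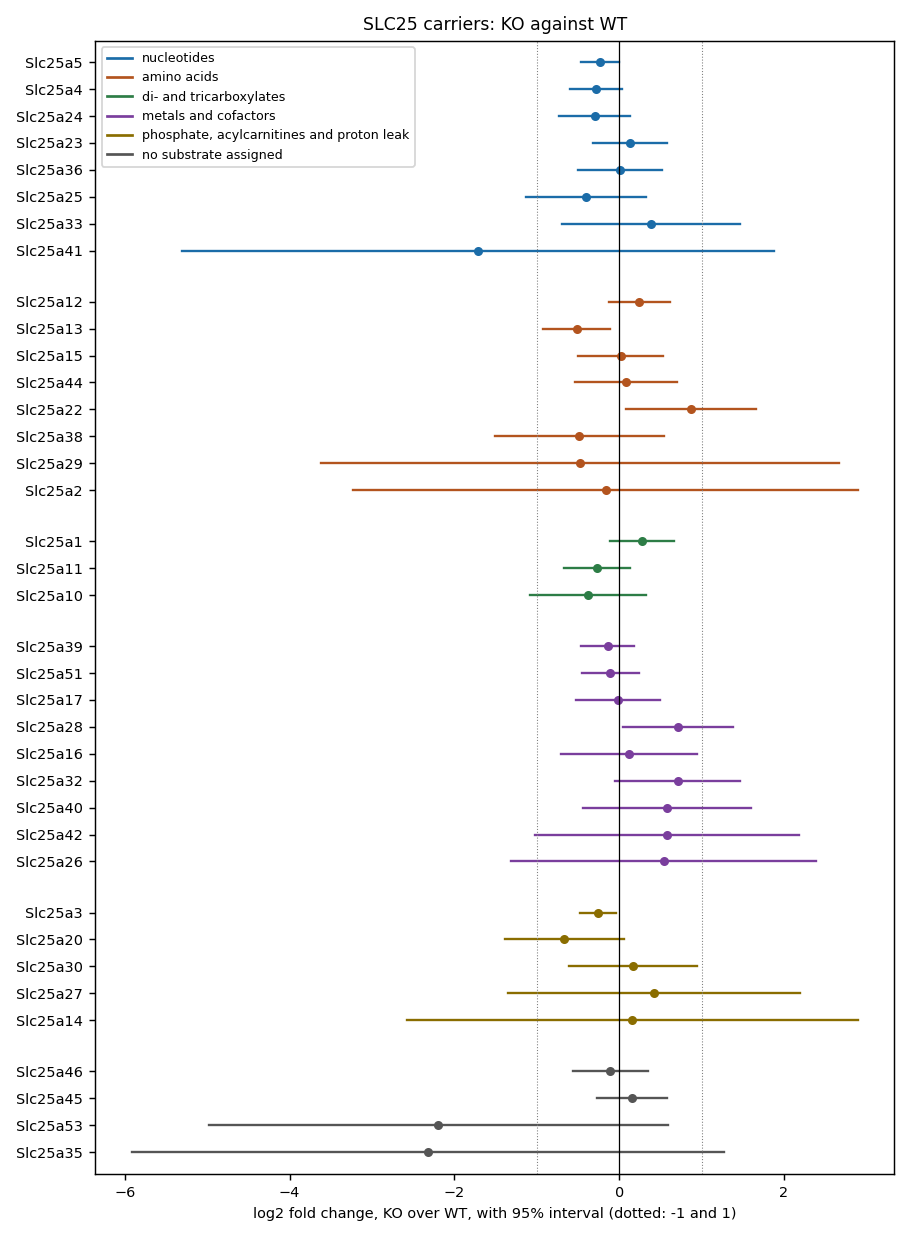
Log2 fold change of the tested SLC25 carriers (1 of the 38 is not shown), KO over WT (points), with its 95% interval from edgeR (lines), coloured by substrate group and ordered by level within a group. Dotted lines mark -1 and 1. The abundant carriers have short intervals close to 0, while genes such as Slc25a41, Slc25a29 and Slc25a35 have intervals several log2 units wide.

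Among amino acid carriers, the aspartate-glutamate carriers Slc25a12 and Slc25a13 had fold changes of opposite sign, neither past the threshold. Slc25a12 (aralar) and Slc25a13 (citrin) export aspartate from the matrix in exchange for glutamate, a step of the malate-aspartate shuttle that carries the reducing power of cytosolic NADH inwards. Slc25a13 had 43.3, 36.3 and 41.3 CPM in KO, against 53.8, 55.1 and 63.7 CPM in WT, with every KO library below every WT library. Its log2 fold change was -0.51 (SE 0.19, 95% interval -0.92 to -0.11), which did not pass after adjustment (edgeR, adjusted p = 0.0958, 0.0749 to 0.285 over the 16 other settings). Slc25a12 lay the other way, with 70.6, 59.6 and 62.0 CPM in KO, against 58.5, 51.7 and 52.2 CPM in WT. Here every KO library was above every WT library by a small margin, and the log2 fold change was 0.24 (95% interval -0.13 to 0.61, edgeR, adjusted p = 0.437).

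Taken as a ratio within each library, which does not depend on the scaling between libraries, Slc25a12 counts were 1.63, 1.64 and 1.5 times those of Slc25a13 in KO, against 1.09, 0.938 and 0.820 times in WT. Aralar reads thus outnumbered citrin reads in every KO library and in WT replicate 1, and were the fewer in WT replicates 2 and 3. The mean log2 ratio was 0.67 ± 0.07 in KO and -0.09 ± 0.20 in WT (SD, n = 3 each), a difference of 0.76. The exact two-sided permutation test gave p = 0.1, the smallest that 3 libraries against 3 allow, and 0.35 after Benjamini-Hochberg adjustment over the 7 paralogue pairs tested, so this difference is not past a threshold. Leaving out any 1 library kept it between 0.65 and 0.86. On the deposited RPKM the ratio was 1.20, 1.24 and 1.24 in KO, against 0.798, 0.687 and 0.652 in WT.

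**Figure D3:**
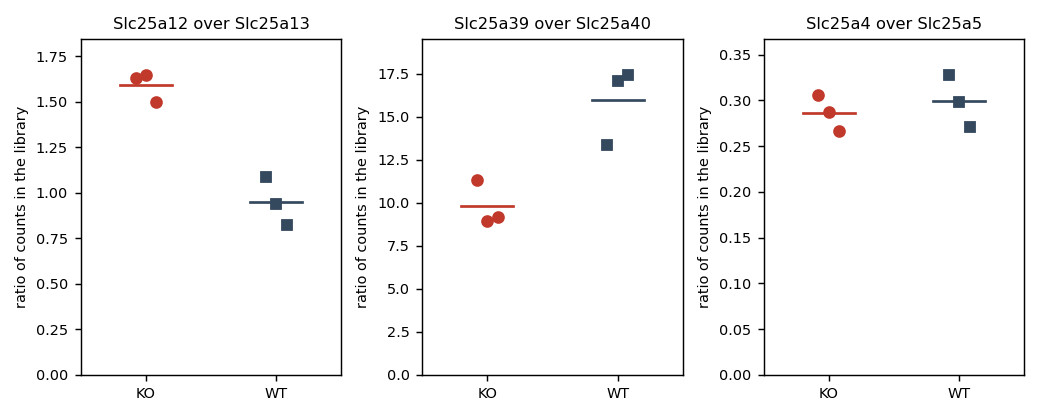
Ratio of the counts of 3 pairs of related carriers within each library (points), with the mean of each group (lines), KO left of WT. The groups are apart for Slc25a12 over Slc25a13 (1.5 to 1.64 in KO, 0.820 to 1.09 in WT) and for Slc25a39 over Slc25a40 (8.96 to 11.3 in KO, 13.3 to 17.4 in WT), and overlap for Slc25a4 over Slc25a5.

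Promoters of these carriers were searched for a pair of motifs, since many amino acid supply genes carry an element bound by ATF4, the transcription factor of the integrated stress response. RefSeq promoter windows, from 250 bases before to 50 after a gene's start on GRCm38.p6, were found for 36 of the 46 members (46 windows). Both motifs were read on both strands. The core of the amino acid response element, TGATGNAA, was in 0 of these 46 windows, against 3.97% of all 32851 windows. The motif of NRF1, linked to nuclear genes of mitochondria, was in 2 of the 46 windows (4.35%), those of Slc25a3 and Slc25a31, against 4.60% of all windows. A match is only a match of letters, and none says nothing of sites outside the window. The windows of the aspartate-glutamate carriers are shown because their ratio had the largest log2 difference among the pairs whose groups did not overlap, and that of Slc25a3 because it is the most abundant carrier and holds a match. That of Pycr1, a proline synthesis gene that rose in KO, is shown as a single chosen example of a window with the TGATGNAA core. The windows of Shmt2, Mthfd2 and Aldh18a1, which also rose, were not looked at singly. Whether the motif has a part in any of these levels was not tested. They lie at chr2:71367706-71368005, chr6:6217124-6217423, chr10:91123918-91124217 and chr11:120643699-120643998, all on the minus strand, and are given 5′ to 3′ in the direction of the gene, with motif matches in capitals.
Slc25a12: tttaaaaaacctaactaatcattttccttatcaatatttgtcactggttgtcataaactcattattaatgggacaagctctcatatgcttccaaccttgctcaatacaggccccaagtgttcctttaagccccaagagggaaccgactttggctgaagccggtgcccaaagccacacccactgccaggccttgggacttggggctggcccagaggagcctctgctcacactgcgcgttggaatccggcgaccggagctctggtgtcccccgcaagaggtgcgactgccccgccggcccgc
Slc25a13: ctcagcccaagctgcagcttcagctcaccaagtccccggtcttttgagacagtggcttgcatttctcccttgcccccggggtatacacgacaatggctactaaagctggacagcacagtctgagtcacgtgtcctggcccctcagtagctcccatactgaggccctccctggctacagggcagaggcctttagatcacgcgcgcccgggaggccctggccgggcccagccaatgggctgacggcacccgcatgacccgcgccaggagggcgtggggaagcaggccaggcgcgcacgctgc
Slc25a3: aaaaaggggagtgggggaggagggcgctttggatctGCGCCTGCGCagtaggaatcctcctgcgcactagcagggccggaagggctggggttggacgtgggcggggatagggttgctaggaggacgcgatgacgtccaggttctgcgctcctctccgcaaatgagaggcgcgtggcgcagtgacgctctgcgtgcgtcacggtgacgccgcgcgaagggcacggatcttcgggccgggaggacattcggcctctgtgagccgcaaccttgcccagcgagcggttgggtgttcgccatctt
Pycr1: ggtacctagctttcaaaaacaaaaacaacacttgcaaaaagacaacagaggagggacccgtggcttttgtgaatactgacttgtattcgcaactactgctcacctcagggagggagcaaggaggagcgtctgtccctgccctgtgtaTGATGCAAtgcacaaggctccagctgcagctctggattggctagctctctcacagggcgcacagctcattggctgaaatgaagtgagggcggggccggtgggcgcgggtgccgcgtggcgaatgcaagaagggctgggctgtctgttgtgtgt

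The mitochondrial glutamate carrier was the amino acid carrier with the largest positive fold change. Slc25a22 had 16.9, 16.0 and 22.1 CPM in KO, against 6.82, 12.9 and 10.3 CPM in WT. The groups did not overlap, and the log2 fold change was 0.87 with a 95% interval of 0.08 to 1.66 (SE 0.38, edgeR, adjusted p = 0.153). Over the 16 other settings its fold change ranged from 0.66 to 1.09 and its adjusted p from 0.120 to 0.404. Its paralogue Slc25a18, which carries the same substrate, had 0 counts in all 6 libraries but was listed at up to 1.13 RPKM, so the count table sets no upper limit on its level.

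The ornithine carrier was at nearly the same level in all libraries. Slc25a15, which takes ornithine into the matrix, had 28.0, 29.0 and 26.8 CPM in KO, against 28.7, 26.7 and 27.4 CPM in WT, and a log2 fold change of 0.02 (95% interval -0.50 to 0.53). Its paralogue Slc25a2 was barely detected, with 23, 13 and 3 counts in KO and 3, 26 and 5 counts in WT. Slc25a38, which imports glycine for the first step of haem synthesis, had 8.0, 7.99 and 7.33 CPM in KO, against 4.81, 14.2 and 13.6 CPM in WT. The KO libraries lay close together between the low WT replicate 1 and the other WT libraries, and the log2 fold change was -0.48 (95% interval -1.51 to 0.54). WT replicate 1 was also the library with the highest summed erythroid markers, 556 CPM. Slc25a44, a carrier of branched-chain amino acids, stood at 21.8 ± 4.45 CPM in KO and 20.6 ± 2.69 CPM in WT. Slc25a29, a carrier of basic amino acids, had 2, 18 and 29 counts in KO and 49, 1 and 1 counts in WT, where replicate 1 held nearly all of them.

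The 3 tested di- and tricarboxylate carriers overlapped between groups. Slc25a1, which exports citrate for cytosolic acetyl-CoA, had 102, 71.6 and 102 CPM in KO, against 63.3, 95.5 and 68.9 CPM in WT, with a log2 fold change of 0.27 (95% interval -0.11 to 0.66). KO replicate 2 lay among the WT libraries, and WT replicate 2 among the KO libraries. Slc25a11, the malate and 2-oxoglutarate exchanger of the malate-aspartate shuttle, stood at 49.3 ± 7.89 CPM in KO and 59.6 ± 5.29 CPM in WT (log2 fold change -0.27, 95% interval -0.67 to 0.13). Slc25a10, the dicarboxylate carrier that exchanges malate or succinate for phosphate, stood at 14.8 ± 3.30 CPM in KO and 19.2 ± 4.29 CPM in WT. The oxodicarboxylate carrier Slc25a21 had 1, 0 and 0 counts in KO and 9, 3 and 2 counts in WT. Its groups did not overlap, but the counts were too few to test.

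Carriers of metals and cofactors had mostly positive fold changes, again with 0 of 10 past the threshold, against 11.4% of all genes tested. Their median log2 fold change was 0.56, with 7 positive and 3 negative. Over all genes tested the median was -0.02, with 5864 of 12204 positive. With limma on log2(RPKM + 1) the median of these carriers was 0.18, with 6 of 10 positive. It was 0.36 without WT replicate 2 and 0.35 without WT replicate 3. The 7 positive ones include Slc25a42, at 0.58 on counts, whose mean RPKM was lower in KO (1.03) than in WT (1.73). The 3 that were negative, Slc25a39, Slc25a51 and Slc25a17, were the most abundant of the group in CPM, at -0.14, -0.11 and -0.02. Slc25a28 (mitoferrin 2), an iron importer of the inner membrane, had 17.7, 30.8 and 26.3 CPM in KO, against 11.5, 16.8 and 17.1 CPM in WT. KO replicate 1 was just above the highest WT library, and the log2 fold change was 0.72 (95% interval 0.05 to 1.39, edgeR, adjusted p = 0.162). Slc25a32, which brings folate and FAD into the matrix, had 15.7, 22.6 and 15.4 CPM in KO, against 9.52, 11.1 and 12.3 CPM in WT, with no overlap and a log2 fold change of 0.71 (95% interval -0.05 to 1.46, adjusted p = 0.235).

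The glutathione carriers were at unequal levels, and their ratio did not overlap between the groups. Slc25a39, the abundant one, had 86.7, 97.9 and 98.0 CPM in KO, against 88.3, 104 and 120 CPM in WT. Slc25a40, its close relative, had 7.64, 10.9 and 10.6 CPM in KO, against 6.61, 6.05 and 6.86 CPM in WT, with every KO library above every WT library (log2 fold change 0.58, 95% interval -0.44 to 1.60). The count ratio of Slc25a39 to Slc25a40 was 11.3, 8.96 and 9.20 in KO, against 13.3, 17.1 and 17.4 in WT, a log2 difference of -0.70. The exact permutation p was 0.1 (two-sided), again the smallest possible, and 0.35 after adjustment over the 7 pairs. The aspartate-glutamate pair and this one were the 2 of 7 pairs whose groups did not overlap. Among single genes, 15.7% had every KO library above every WT library and 14.5% had every KO library below, so nothing is read from the count of pairs.

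The remaining cofactor carriers varied as much within a group as between groups. Slc25a51, which carries NAD into the matrix, stood at 72.9 ± 0.707 CPM in KO and 78.6 ± 11.2 CPM in WT. Slc25a17, a peroxisomal carrier of CoA and related cofactors, stood at 38.5 ± 11.8 CPM in KO and 38.8 ± 6.71 CPM in WT. The CoA carrier Slc25a42 had 1.3, 6.39 and 9.54 CPM in KO and 5.41, 3.63 and 2.47 CPM in WT, and Slc25a16, also linked to CoA, stood at 15.3 ± 5.72 CPM in KO and 14.1 ± 4.96 CPM in WT. Slc25a26, which imports S-adenosylmethionine, had 6.35, 3.93 and 1.97 CPM in KO and 4.21, 1.21 and 3.01 CPM in WT.

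Slc25a20 was the tested carrier above 10 CPM with the most negative fold change. It moves acylcarnitines into the matrix for fatty acid oxidation and had 15.4, 11.8 and 12.7 CPM in KO, against 17.8, 15.6 and 29.8 CPM in WT. The groups came close, at 15.4 in KO replicate 1 and 15.6 in WT replicate 2, and WT replicate 3, the library with the highest macrophage and endothelial markers, was far above the rest. The log2 fold change was -0.67 (95% interval -1.39 to 0.05, adjusted p = 0.241), and over the other settings it ranged from -0.84 to -0.33. Relatives of the uncoupling proteins were low: Slc25a30 stood at 16.7 ± 6.87 CPM in KO and 14.8 ± 3.01 CPM in WT, Slc25a27 at 3.92 ± 1.09 CPM in KO and 2.92 ± 0.695 CPM in WT, and Slc25a14 had 35, 52 and 3 counts in KO and 47, 9 and 1 counts in WT.

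Members with no substrate assigned included abundant and near-silent genes. Slc25a46, an outer membrane protein linked to mitochondrial shape, stood at 48.4 ± 9.12 CPM in KO and 52.3 ± 13.6 CPM in WT, and Slc25a45 at 47.9 ± 4.38 CPM in KO and 43.0 ± 5.50 CPM in WT. Slc25a53 had 14, 5 and 2 counts in KO, against 28, 26 and 23 counts in WT, with no overlap and a log2 fold change of -2.20 whose interval ran from -4.98 to 0.59 (adjusted p = 0.331). Slc25a35 had 14, 0 and 0 counts in KO and 19, 1 and 41 counts in WT. Slc25a43 was too low to be tested, with 31, 11 and 11 counts in KO against 1, 3 and 2 counts in WT. Without the filter on low counts its log2 fold change was 2.78 with an SE of 2.20 (edgeR, adjusted p = 0.471). Slc25a47 had 10 counts in KO and 28 in WT, and Slc25a34, Slc25a48 and Slc25a54 had 0 counts in every library. For Slc25a48 and Slc25a54, also listed at 0 RPKM throughout, 0 counts allow up to 0.200 to 0.301 CPM in a library (3 counts, counting error only, as reads without molecular identifiers are not independent molecules).

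Beside the carriers, enzymes of the same pathways were read from a list of 28, of which 27 were tested and 5 were higher and 4 lower in KO. That is 33.3% of those tested, against 11.4% of all genes. In one-carbon metabolism the mitochondrial enzymes Shmt2 and Mthfd2 rose by 1.36 and 2.58 on the log2 scale (edgeR, adjusted p = 2.01e-07 and 7.93e-05), beside 0.71 for the folate carrier Slc25a32, which did not pass. In proline synthesis Aldh18a1 rose by 1.16 (adjusted p = 2.36e-06) and Pycr1 by 3.24 (adjusted p = 0.00794, and 0.0503 without KO replicate 3). Beside them stand 0.02 for the ornithine carrier Slc25a15 and 0.87 for the glutamate carrier Slc25a22, neither of which passed. In the malate-aspartate shuttle the cytosolic Mdh1 fell by 0.55 (adjusted p = 0.00998), while Got1, Got2 and Mdh2 did not pass. Got1 lay the other way from Mdh1, at 0.71 (95% interval 0.15 to 1.27, edgeR, adjusted p = 0.0976), with every KO library above every WT library. Got2 was at -0.23 and Mdh2 at 0.09. In haem synthesis Alas2 and Fech fell by 2.93 and 2.31 (adjusted p = 1.45e-05 and 0.0401, the second not called without KO replicate 1, KO replicate 3 or WT replicate 2, with a highest adjusted p of 0.149). Alas2 is also on the erythroid marker list. These values stand beside -0.48 for the glycine carrier Slc25a38. Cpt1a, which makes acylcarnitines, fell by 0.72 (adjusted p = 0.0453, not called without any 1 library other than WT replicate 2, up to 0.185), beside -0.67 for Slc25a20. The folate enzyme Mthfd1l rose by 0.46 (adjusted p = 0.0294, not called without KO replicate 1, KO replicate 2, WT replicate 1 or WT replicate 3, up to 0.150). Of these 9 enzymes, 4 (Shmt2, Mthfd2, Aldh18a1 and Alas2) were also called in all 3 fits of limma on RPKM. Whether a carrier's fold change differs from that of its enzymes was not tested. The list was drawn up with earlier results of these data known, so its count is no independent evidence.

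**Figure D4:**
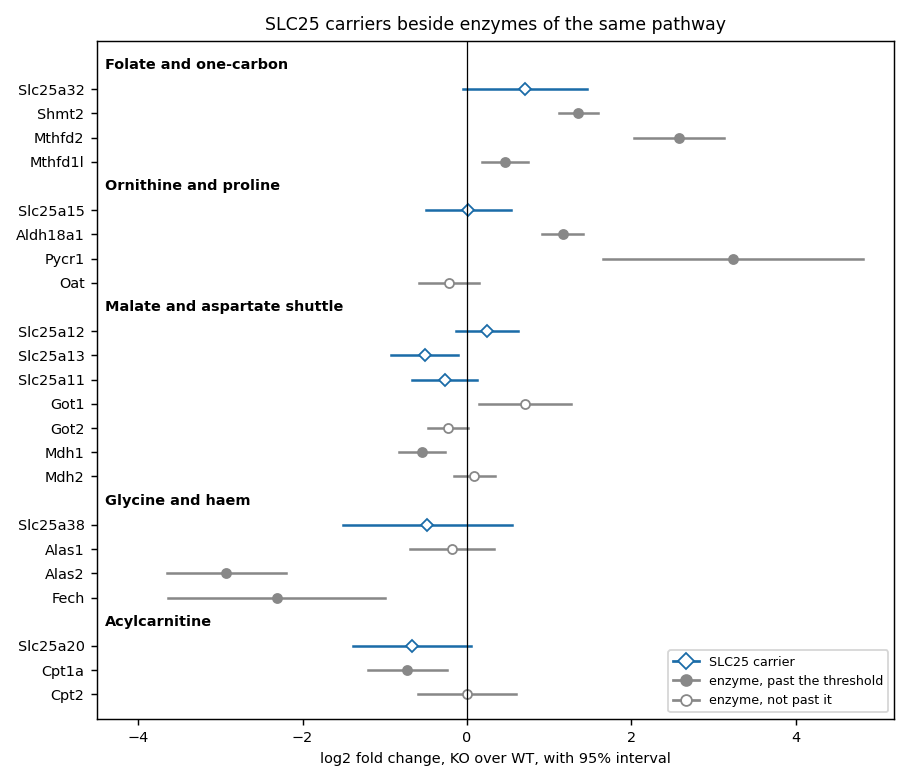
Log2 fold change, KO over WT, with 95% interval, for SLC25 carriers (blue diamonds) and enzymes of the same pathways (grey circles, filled where the adjusted p was under 0.05). All blue diamonds are open, as no carrier passed, while Shmt2, Mthfd2, Aldh18a1 and Pycr1 lie to the right of 0 and Alas2 and Fech to the left.

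Carriers known by other symbols and neighbours in the mitochondrial membranes had 3 calls in all, to be read against the 11.4% of all genes called. Of 5 related carriers, Ucp1 and Ucp3 had 0 counts, and of the 3 tested 1 was lower. That was Ucp2, the uncoupling protein of blood cells, at 182 ± 29.0 CPM in KO and 279 ± 15.2 CPM in WT (SD, n = 3 each), which fell by 0.61 on the log2 scale (edgeR, adjusted p = 0.00251). Its fall was called whichever library was left out, with a highest adjusted p of 0.0318, but not with limma on log2 RPKM (adjusted p = 0.0563). Of 20 other transporters and porins 0 were higher and 2 lower: Tspo, a cholesterol-binding protein of the outer membrane, fell by 0.91 (adjusted p = 0.0125, and 0.0557 without WT replicate 2), and Abcb10, an inner membrane transporter that supports haem synthesis, fell by 0.87 (adjusted p = 0.0314, not called without any 1 library, up to 0.114). The pyruvate carrier subunits Mpc1 and Mpc2 and the porin Vdac1 did not pass, with log2 fold changes of -0.44, -0.25 and -0.03. Of the 20, 5 had a positive and 15 a negative fold change. The largest difference was positive, 3.34 for Sfxn4 (95% interval 0.81 to 5.86, edgeR, adjusted p = 0.0808). Sfxn4 had 35, 50 and 81 counts in KO, against 3, 1 and 10 counts in WT. Of 14 genes of the machinery that imports carriers into the inner membrane, 0 passed in either direction by edgeR, with 2 at an unadjusted p under 0.05. DESeq2 called 1 of them lower and limma-voom 0.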

How the data were processed

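RNA of fetal liver HSCs was sequenced as total RNA with a stranded kit for low input, per the labels' protocols, in 3 KO and 3 WT libraries. The authors deposited read counts by gene symbol, unscaled, and separately RPKM values. TopHat and Cufflinks with the mm9 build are named per the submitters' processing notes. The sources used here give no versions, read counter, annotation or strand setting, nor how multiply matching reads were handled. On GENCODE vM21, exons of 13 members overlap another gene, and in 7 it is a protein-coding gene on the opposite strand (Slc25a11, Slc25a18, Slc25a21, Slc25a25, Slc25a26, Slc25a35 and Slc25a46), so reads of the pair may not be told apart.

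For KO against WT, counts were filtered by filterByExpr (minimum count 10), scaled by TMM and fitted by group alone in edgeR 4.0.16 (R 4.3.3, robust quasi-likelihood), with Benjamini-Hochberg adjustment over 12204 genes and a threshold of 0.05. The fits were also run on simulated counts with known changes, only to test the code. The SE is the size of the log2 fold change over the square root of F, and the 95% interval uses the test's degrees of freedom. CPM use TMM-scaled library sizes. Replicates of a group differed beyond counting noise (chi-square per degree of freedom 21.7 to 43.1). Same-numbered libraries did not deviate together (correlations of 0.02, 0.01 and -0.00), so the numbers were not taken as pairs.

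The members and lists were chosen with earlier results of these data known. The rule for named genes took every member past the threshold, the 2 members with the highest mean CPM of each substrate group, both members of 8 paralogue pairs, and every gene past the threshold in the comparison lists. Other members and list genes were named after their values were seen. Alternatives used DESeq2 1.42.0, limma 3.58.1 (voom, or log2 of RPKM plus a pseudocount), other scaling and filters, a replicate block, offsets for transcript length and GC content, and 1 library left out. The values of 1 member, which is included in the counts and medians, are not reported here.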

Additional observations from a re-analysis of the deposited data

How the results depend on the processing

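The count of called SLC25 members was 0 higher and 0 lower under all 16 other settings. The sign of the fold change was the same under all settings that fitted the member for 25 of 38 tested members. Of these 25, Slc25a35 was fitted in 15 and Slc25a41 in 14 of the 16 settings. The sign turned in at least 1 setting for 13 members, none of them called in any setting. Without 1 library, genes called over the whole table numbered 448 to 717 higher and 264 to 546 lower, against 782 and 609 with all libraries; the low counts came without KO replicate 2 (448 and 264) and without KO replicate 3 (489 and 344), and 383 were lower without WT replicate 1. With limma on log2(RPKM + 1) they were 318 and 185, with a pseudocount of 0.1 they were 316 and 176, and with no filter 116 and 50. Carriers under other symbols had 2 lower genes with no filter or with length and GC offsets, 0 by limma on RPKM with either pseudocount or no filter, and 1 to 2 without 1 library. Other transporters and porins had 1 higher gene by DESeq2, 3 lower genes with no filter, and 1 lower gene by limma on RPKM in all its forms and without any 1 library. Without WT replicate 2 that lower gene was neither Tspo nor Abcb10. Import genes had 1 higher with length and GC offsets, 1 lower by DESeq2 or with no filter, and 0 to 1 in each direction without 1 library. The cause was not tested. With the replicate number as a block, 0 members, 762 higher and 579 lower genes were called, and not every library correlated best with its own number; among the list genes called, Cpt1a alone lost its call (adjusted p = 0.0581). Ratios of paralogue pairs without 1 library or on RPKM were added after the data were seen. The 19 members whose intervals reached past a 2-fold difference included all 12 tested members under 10 CPM. They also included members above 10 CPM, among them Slc25a20, Slc25a22 and Slc25a28. The parts of depth and of spread between libraries in these intervals were not separated.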

Other observations

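The deposited tables did not give the same picture for every carrier. In 32 members with at least 10 counts in every library, the ratio of RPKM to CPM differed by more than 1.5-fold between libraries in 1. That was the CoA carrier Slc25a42, which had 0.508, 2.34 and 0.239 RPKM in KO, against 2.15, 1.86 and 1.17 RPKM in WT, while its counts were 18, 96 and 121 in KO and 54, 39 and 32 in WT. KO replicate 3 was thus the highest library by counts and the lowest by RPKM. Slc25a18, with 0 counts in every library, was listed at 0, 0.779 and 1.13 RPKM in KO and at 0.0718, 0.190 and 0 RPKM in WT. The globin gene Hbb-b1 had 0 counts in every library beside values of up to 234 RPKM in KO and 373 RPKM in WT. Slc25a34, also at 0 counts, was listed at 0, 0 and 0.0731 RPKM in KO and at 1.39, 0.113 and 0 RPKM in WT.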
